A study of Sus scrofa with 92 samples.

Results

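Albumin and 4 other plasma proteins that are classed as negative acute phase proteins were followed in pig liver through hemorrhagic shock and resuscitation. The genes were ALB (albumin), TF (transferrin), AHSG (fetuin-A), TTR (transthyretin) and RBP4 (retinol binding protein 4). They were chosen by symbol from the identifiers of the count table, each symbol matched 1 row, and they made up 5 of its 25322 rows. The rows were ENSSSCG00000008948 for ALB, ENSSSCG00000011640 for TF, ENSSSCG00000011799 for AHSG, ENSSSCG00000023686 for TTR and ENSSSCG00000010479 for RBP4. The rule names the genes by symbol and not by a measured value, and the 5 were chosen with earlier results of these data known. It does leave out libraries by measured values, ALB among them, as given below.

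Liver RNA was sequenced from 23 male Yorkshire-Landrace cross pigs. All pigs, the fasted and the fed ones alike, had their spleen removed and then received a blunt chest injury, a crush injury of the liver and controlled bleeding, followed by limited and then full resuscitation. Of these, 18 pigs had been fasted overnight (FS) and 5 fasted pigs had received an oral carbohydrate syrup before anesthesia (CPF, carbohydrate prefed). Biopsies were labelled Baseline (B), which was taken after instrumentation and before injury, and FR2, FR8 and FR20, which were taken 2, 8 and 20 hours after the start of full resuscitation. There was no uninjured group sampled over time, so injury, repeated biopsy, anesthesia and time cannot be told apart.

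Hepatocytes make most of the protein in plasma and secrete it without storing it. Albumin carries fatty acids, hormones and drugs and holds water in the circulation. Transferrin carries iron, fetuin-A binds calcium phosphate and the insulin receptor, and transthyretin carries thyroxine and, in a complex with RBP4, retinol. In the acute phase response to injury, cytokines such as interleukin-6 redirect hepatocyte transcription toward proteins such as C-reactive protein, and the plasma levels of the negative acute phase proteins go down.

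The 88 libraries used held between 6877117 and 16613261 counts, with a median of 12071958. Levels are given as CPM, counts per 1000000 counts of the library. Gene lengths were not used, so levels are compared between libraries and not between genes. Together the 5 genes took 16.98% ± 2.75 (SD, n = 15) of all counts in FS livers at Baseline. Their share was 12.06% ± 2.92 (n = 18) at FR2, 9.26% ± 3.89 (n = 18) at FR8 and 6.65% ± 2.95 (n = 18) at FR20. In CPF livers it was 17.33% ± 2.20 (n = 5), 13.91% ± 2.73 (n = 5), 9.39% ± 2.06 (n = 4) and 8.57% ± 7.56 (n = 5). A biopsy is a mixture of cells, and fewer hepatocytes in it cannot be told apart from less RNA of these genes per hepatocyte.

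Of the 92 libraries deposited, 4 were left out of all changes, 3 because they held almost no ALB and 1 for its low total. ALB is itself among the genes tested, so the FS Baseline group was set in part by a tested gene. The Baseline libraries of FS animals 13, 14 and 16 held 4, 899 and 5 ALB counts. That is 0.197, 52.7 and 0.312 CPM of ALB, against at least 59451 CPM in every other FS Baseline library. RBP4 held 61, 169 and 71 counts there, TF held 14, 356 and 3, and TTR held 0, 33 and 0. The 3 libraries also held 50780, 53400 and 51200 CPM over 7 striated muscle genes, against 13.34 to 62.44 CPM in the other FS Baseline libraries. Over 10 hepatocyte marker genes they held 6.99, 58.25 and 9.857 CPM, against 18500 to 30720 CPM. By their markers these 3 libraries held almost no hepatocyte RNA. The fourth, the FR8 library of CPF animal 1, held 4388 counts in all, of which 246 were ALB.

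The timepoint labels of the libraries that remained were checked against genes outside the lists used here. Genes named below only for their likeness to ALB, TF, AHSG, TTR or RBP4 were not left out, so the check is not independent of them. Each library was compared, over 6471 genes of none of the lists used here, with the mean profile of each timepoint in the other animals. Of 88 libraries, 70 were closest to their own labelled timepoint and 18 were closest to another. FS animals 7, 13, 14 and 16, the 4 animals with 3 such libraries each, held 12 of the 18, and 13, 14 and 16 are the animals whose Baseline libraries held almost none. In FS animals 13, 14 and 16, the library labelled FR8 was closest to the Baseline mean (r = 0.85, 0.59 and 0.86 across genes), the one labelled FR2 was closest to the FR8 mean (r = 0.61, 0.36 and 0.69), and the one labelled FR20 was closest to the FR2 mean (r = 0.53, 0.55 and 0.69). In FS animal 7 the libraries labelled B, FR2 and FR8 were closest to the FR8, FR20 and FR2 means (r = 0.68, 0.64 and 0.60). In CPF animal 4 the library labelled FR20 was closest to the Baseline mean (r = 0.74, against -0.35 for its own label), and the one labelled FR8 was about as close to the FR20 mean as to its own (r = 0.45 and 0.43). In FS animal 6 the library labelled FR8 was closest to the FR20 mean (r = 0.53, against 0.048 for its own label) and the one labelled FR20 was closest to the FR8 mean (r = 0.36, against -0.026). The other 2 were the Baseline library of FS animal 3 and the FR20 library of FS animal 15, both closest to the FR8 mean. No 2 libraries held identical values. The cause was not tested, and no library was given another label. Results are given with all 88 libraries and, where they moved, without these 4 FS animals. That second set was chosen after the data were examined, and leaving out libraries that are unlike their label makes changes over time more uniform by its construction.

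**Figure D1:**
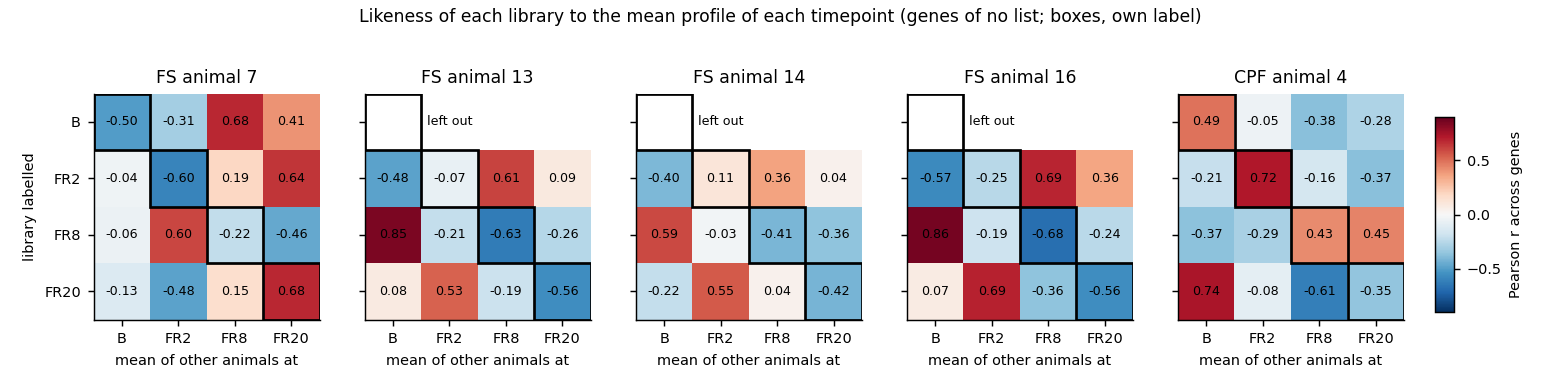
Pearson correlation across 6471 genes between each library of 5 animals (rows, the labelled timepoint) and the mean profile of each timepoint in the other animals (columns). Boxes mark the library's own label, and in FS animals 13, 14 and 16 none of the boxed cells is the highest of its row.

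The first question was how far the 5 mRNAs changed from Baseline in fasted animals. All 5 were lower at FR8 and FR20 by the test across all genes, and 4 of the 5 already at FR2. ALB fell the most by FR20, with a fitted log2 fold change of -2.22 (SE 0.26), and RBP4 the least, with -0.68 (SE 0.12). At FR2, 4 of the 5 genes passed an adjusted p of 0.05 (edgeR quasi-likelihood test, adjusted over 13667 genes), where 41.4% of all genes passed and 21.1% passed as lower. At FR8, 5 of 5 passed, where 39.3% of all genes passed and 19.5% as lower. At FR20, 5 of 5 passed, where 33.8% of all genes passed and 16.4% as lower. The median log2 change of the 5 genes was -0.71, -1.28 and -1.99 at the 3 timepoints, where the median of all genes was -0.04, 0.00 and 0.04.

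The size of the changes depended on the scaling. The fit used edgeR's trimmed mean (TMM) factors, and on library totals instead the median of all genes moved to 0.15, 0.25 and 0.45. On library totals ALB was -0.56, -1.14 and -1.79, and RBP4 was -0.08, -0.21 and -0.25, each at FR2, FR8 and FR20. On library totals 4, 5 and 5 of the 5 genes passed, where 38.8%, 44% and 53.8% of all genes passed. The 3 Baseline libraries that were left out held almost none of the 5 mRNAs, and with them kept 0, 0 and 3 of the 5 genes passed, where 31.4%, 29.8% and 22.7% of all genes passed.

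**Figure D2:**
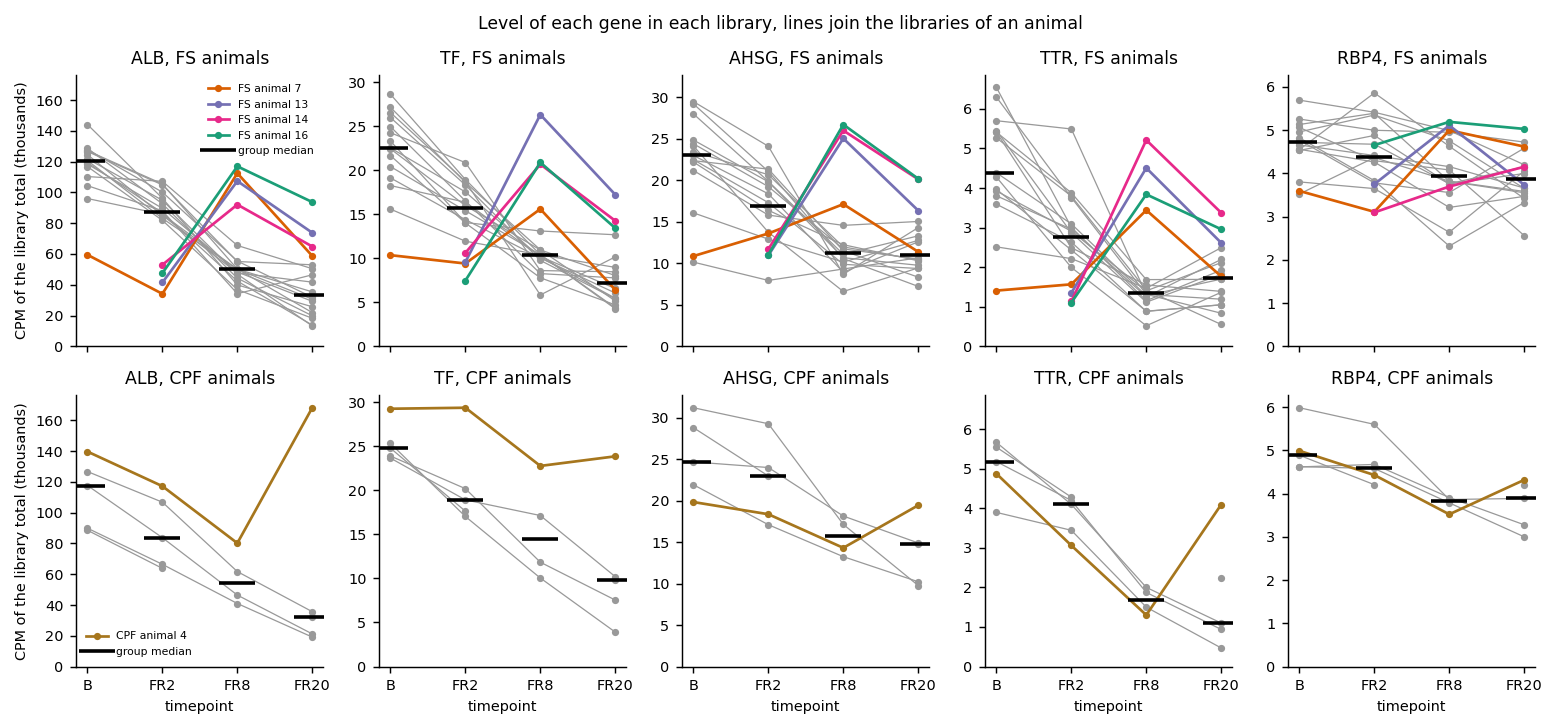
CPM of each gene in each of the 88 libraries (vertical axis, in units of 1000 CPM; horizontal axis, labelled timepoint), FS animals above and CPF animals below, with lines joining an animal's consecutive libraries and bars at group medians. FS animals 7, 13, 14 and 16 and CPF animal 4 are coloured, and most grey lines slope down from B to FR20.

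ALB, the most abundant plasma protein, ranged from 59451 to 144147 CPM in FS livers at Baseline, with a median of 120756 CPM. At FR2 it ranged from 34090 to 107229 CPM (median 87376), at FR8 from 34173 to 116979 CPM (median 50059), and at FR20 from 13202 to 93740 CPM (median 33634). The groups overlapped at every timepoint, but 15 of 18 FR20 libraries lay below every Baseline library. How many of all genes separate this far between groups was not counted, here or for the genes below. Within animals ALB was lower than at Baseline in 15 of 15 FS animals at FR2, 14 of 15 at FR8 and 15 of 15 at FR20, and the median ratio to Baseline was 0.757, 0.395 and 0.249. The exception at FR8 was animal 7. The fitted log2 fold change of ALB was -0.71 (SE 0.24, adjusted p = 0.0140) at FR2, -1.43 (SE 0.25, adjusted p = 1.04e-05) at FR8 and -2.22 (SE 0.26, adjusted p = 2.85e-09) at FR20. Without FS animals 7, 13, 14 and 16 these were -0.50, -1.70 and -2.51, and all 3 passed, where 50.3%, 53.1% and 44.1% of all genes passed. In these 14 animals the level was 120502 ± 11635 CPM at Baseline, 92994 ± 8686 at FR2, 47623 ± 8094 at FR8 and 30807 ± 13154 at FR20 (SD, n = 14 each).

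TF, the iron carrier of plasma, had a median of 22521 CPM in FS livers at Baseline (range 10343 to 28608), 15678 CPM at FR2 (7460 to 20853), 10387 CPM at FR8 (5822 to 26300) and 7160 CPM at FR20 (4258 to 17216). It was lower than at Baseline in 15 of 15, 14 of 15 and 15 of 15 animals. The fitted log2 change was -0.76 (SE 0.21, adjusted p = 0.00304), -1.28 (SE 0.22, adjusted p = 8.76e-06) and -2.00 (SE 0.23, adjusted p = 1.54e-09). The gene table of the current pig assembly lists a neighbouring second gene under the symbol TF, with the synonym PICA. Reads that the copies share could be counted to either or to none, so the level of TF is uncertain.

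AHSG, a calcium phosphate binding protein of plasma and bone, had medians of 22996, 16844, 11291 and 11021 CPM at B, FR2, FR8 and FR20 in FS livers. It was lower than at Baseline in 14 of 15 animals at FR2, 14 of 15 at FR8 and 13 of 15 at FR20. Its fitted log2 change was -0.64 (SE 0.19, adjusted p = 0.00502), -1.12 (SE 0.20, adjusted p = 1.07e-05) and -1.37 (SE 0.20, adjusted p = 2.59e-07). The medians at FR8 and FR20 were close, and the change between them was -0.24 (SE 0.18, adjusted p = 0.474).

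TTR, the thyroxine carrier, ranged from 1407 to 6541 CPM in FS livers at Baseline (median 4385), from 1105 to 5492 CPM at FR2 (median 2753), from 518 to 5212 CPM at FR8 (median 1357) and from 551 to 3374 CPM at FR20 (median 1732). It was lower than at Baseline in 14 of 15 animals at each of the 3 timepoints, with median ratios of 0.717, 0.270 and 0.313. Its fitted log2 change of -0.96 (SE 0.27, adjusted p = 0.00374) at FR2 and -1.85 (SE 0.30, adjusted p = 2.76e-06) at FR8 was the lowest of the 5 genes at those timepoints, and at FR20 it was -1.99 (SE 0.29, adjusted p = 3.30e-07). Without the 4 FS animals it was -2.32 at FR8 and -2.13 at FR20, and the level was 1230 ± 305 CPM at FR8 against 4753 ± 1145 CPM at Baseline (SD, n = 14), with no overlap.

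RBP4, which carries retinol from the liver, changed least. It ranged from 3524 to 5694 CPM in FS livers at Baseline (median 4719), from 3097 to 5861 CPM at FR2 (median 4390), from 2318 to 5192 CPM at FR8 (median 3950) and from 2561 to 5029 CPM at FR20 (median 3866). The ranges overlapped at all timepoints. RBP4 was lower than at Baseline in 10, 12 and 12 of 15 animals, and its median ratio to Baseline was 0.951, 0.829 and 0.786. The fitted log2 change was -0.26 (SE 0.12, adjusted p = 0.0595) at FR2, which did not pass but did without any 1 of FS animals 3, 7, 9 or 17 or CPF animals 3 or 5 (adjusted p from 0.0229 to 0.0464), -0.48 (SE 0.12, adjusted p = 0.000799) at FR8 and -0.68 (SE 0.12, adjusted p = 7.77e-06) at FR20. On library totals the RBP4 changes were smaller, with adjusted p = 0.490 at FR2, 0.0484 at FR8 and 0.0140 at FR20.

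**Figure D3:**
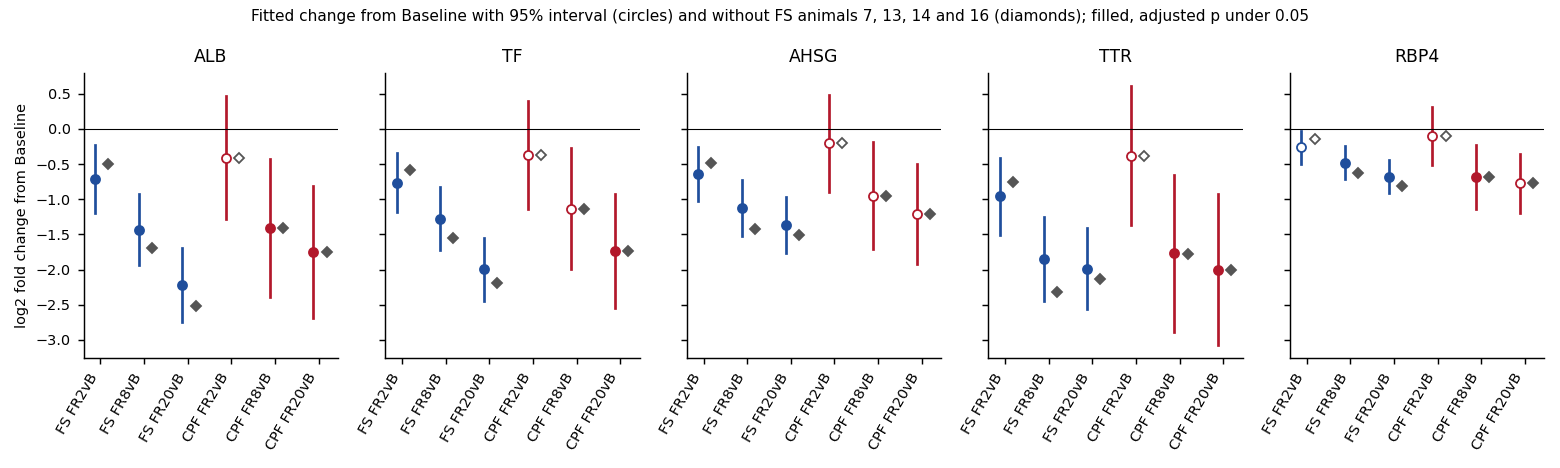
Fitted log2 fold change from Baseline (vertical axis) of the 5 genes in FS (blue) and CPF (red) animals, circles with 95% intervals over all 88 libraries and diamonds without FS animals 7, 13, 14 and 16. Filled symbols passed an adjusted p of 0.05, and the RBP4 values lie nearest to 0.

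The next comparisons asked when in the 20 hours the change took place in fasted animals. Between FR2 and FR8, ALB fell further by a log2 of -0.72 (SE 0.24, adjusted p = 0.0186), TTR by -0.89 (SE 0.28, adjusted p = 0.0129) and AHSG by -0.48 (SE 0.19, adjusted p = 0.0449). TF had -0.51 (SE 0.21, adjusted p = 0.0576) and RBP4 -0.22 (SE 0.11, adjusted p = 0.134), and neither passed. So 3 of 5 passed, all as lower, where 28.4% of all genes passed and 13.9% as lower. Between FR8 and FR20 only ALB (-0.79, SE 0.23, adjusted p = 0.0280) and TF (-0.72, SE 0.21, adjusted p = 0.0231) passed among the 5, where 6.39% of all genes passed and 3.33% as lower. TTR had -0.14 (SE 0.27, adjusted p = 0.825) over that interval and RBP4 had -0.20 (SE 0.11, adjusted p = 0.289). These calls lay near the threshold: leaving out 1 animal ended that of AHSG between FR2 and FR8 for 2 CPF and 13 FS animals, that of ALB between FR8 and FR20 for 7 FS animals (adjusted p up to 0.0580), and that of TF there for FS animal 7 (-0.63, adjusted p = 0.0537).

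The step from FR2 to FR8 ran the other way in the 4 FS animals that had 3 libraries each closest to another timepoint. In animals 7, 13, 14 and 16, ALB went from 34090, 41461, 52964 and 47566 CPM in the library labelled FR2 to 112491, 107406, 92098 and 116979 CPM in the one labelled FR8. In 14 of 14 other FS animals it was lower at FR8 than at FR2, by a log2 of -1.37 to -0.71. The other 4 genes were likewise higher at the FR8 label in 4 of 4 of these animals, and lower in 14 of 14 of the others for TF, TTR and RBP4 and in 13 of 14 for AHSG. Without any 1 of the 4 animals TF passed as well (adjusted p from 0.0150 to 0.0183), and so did RBP4 without animal 7 or 14 (0.0290 and 0.0333). Without all 4 animals, 5 of 5 genes passed between FR2 and FR8, with -1.19 for ALB, -0.97 for TF, -0.94 for AHSG, -1.57 for TTR and -0.48 for RBP4, where 48.2% of all genes passed. Between FR8 and FR20, ALB (-0.81) and TF (-0.64) still passed, where 23.8% of all genes passed, and TTR had 0.19 (adjusted p = 0.548), the opposite sign. FS animal 6, whose FR8 and FR20 libraries were each closest to the other's timepoint, was the 1 FS animal of 18 in which ALB and TF were higher at FR20 than at FR8 (log2 ratio of CPM 0.44 and 0.80), and without it both still passed (-0.85 and -0.78).

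In carbohydrate prefed animals the median level of each of the 5 genes was lower than at Baseline at every later timepoint. The 5 animals gave wide intervals, and none of the 5 genes passed at FR2. At Baseline ALB was 88577, 89934, 126760, 139731 and 117680 CPM in CPF animals 1 to 5, and at FR2 it was 63821, 66453, 106843, 117247 and 83750 CPM in the same order. At FR8 it was 40981, 61736, 80212 and 46457 CPM in animals 2 to 5, and at FR20 it was 32437, 19154, 35666, 168246 and 21209 CPM in animals 1 to 5. ALB was lower than at Baseline in 5 of 5 animals at FR2, 4 of 4 at FR8 and 4 of 5 at FR20. The exception was CPF animal 4, whose library labelled FR20 held the most ALB of all CPF libraries and was the one closest to the Baseline mean over other genes. TF, AHSG, TTR and RBP4 were also highest in that library among the 5 CPF libraries at FR20, at 23865, 19432, 4095 and 4318 CPM.

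At FR2, 0 of 5 genes passed in CPF animals (edgeR quasi-likelihood test, log2 changes from -0.41 to -0.10, adjusted p from 0.624 to 0.828, smallest unadjusted p 0.339), where 3.41% of all genes passed. At FR8, 3 of 5 passed, where 13.3% of all genes passed and 6.99% as lower: ALB (-1.41, SE 0.49, adjusted p = 0.0442), TTR (-1.77, SE 0.56, adjusted p = 0.0273) and RBP4 (-0.69, SE 0.23, adjusted p = 0.0345). AHSG had -0.95 (adjusted p = 0.0811) and TF had -1.13 (adjusted p = 0.0645). At FR20, 3 of 5 passed, where 0.893% of all genes passed and 0.615% as lower: ALB (-1.76, SE 0.47, adjusted p = 0.0459), TF (-1.74, SE 0.41, adjusted p = 0.0262) and TTR (-2.00, SE 0.54, adjusted p = 0.0459). AHSG had -1.21 (adjusted p = 0.0691) and RBP4 had -0.77 (adjusted p = 0.0506). These CPF calls lay near the threshold. Leaving out any 1 of the 5 CPF animals ended the calls of ALB and RBP4 at FR8, and all but animal 1 ended that of TTR (adjusted p from 0.0526 to 0.1495). Leaving out any 1 of CPF animals 1, 2, 3 or 5 ended the calls of ALB, TF and TTR at FR20 (adjusted p from 0.0650 to 0.303). Any 1 of 3 FS animals ended that of ALB at FR8, and any 1 of 11 and 10 FS animals those of ALB and TTR at FR20, with an adjusted p of at most 0.0581. In the other direction, TF at FR8 and AHSG and RBP4 at FR20 passed without any 1 of FS animals 7, 13, 14 or 16 (adjusted p from 0.0206 to 0.0493), and RBP4 also without FS animal 8 or 15. Without CPF animal 4, AHSG (-1.56) and RBP4 (-0.93) passed at FR20 too. In the fit without the 4 FS animals, which shares its estimate of spread between feeding groups, 5 of 5 genes passed at FR8 and at FR20, with CPF values that moved by less than 0.01, and 23.1% and 7.56% of all genes passed.

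The TTR levels in CPF animals were 5544, 5179, 3896, 4874 and 5665 CPM at Baseline and 4281, 4197, 3443, 3059 and 4097 CPM at FR2 in animals 1 to 5. They were 1873, 1501, 1301 and 2000 CPM at FR8 in animals 2 to 5, and 2229, 938, 469, 4095 and 1099 CPM at FR20 in animals 1 to 5. At FR8 all 4 values lay below the lowest Baseline value, and at FR20 4 of 5 did. RBP4 in CPF animals was 4888, 5988, 4624, 4991 and 4619 CPM at Baseline and 4203, 3890, 3001, 4318 and 3280 CPM at FR20. Each FR20 value of RBP4 was below each Baseline value. The share of all genes that separate in this way in so few libraries was not counted.

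The study's main question was whether feeding state alters the response. The change from Baseline in CPF animals minus that in FS animals did not pass for any of the 5 genes. At FR2 the 5 differences ranged from 0.16 to 0.58 on the log2 scale, with 95% intervals reaching from -0.69 to 1.71. They ranged from -0.21 to 0.17 at FR8 (intervals from -1.14 to 1.29) and from -0.09 to 0.47 at FR20 (intervals from -1.20 to 1.51). For ALB the difference was 0.30 at FR2, 0.02 at FR8 and 0.47 at FR20, and without CPF animal 4 the FR20 value was -0.21. In these 3 comparisons 0, 0 and 0 of 13667 genes passed (edgeR quasi-likelihood test, 0% each), while 397, 468 and 521 genes had an unadjusted p below 0.05. DESeq2 passed 0, 2 and 2 genes and the likelihood ratio test 1, 0 and 0. The intervals of TTR at FR8 and FR20 and of ALB at FR8 held a 2-fold difference in both directions. Those of RBP4 held none at any of the 3 timepoints (-0.71 to 0.64 at the widest). The data do not show that the feeding groups responded alike.

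Levels were also compared between CPF and FS animals at each timepoint, and again none of the 5 genes passed. The log2 differences ranged from -0.11 to 0.14 at Baseline (intervals from -0.56 to 0.65), from 0.16 to 0.54 at FR2 (-0.42 to 1.17), from -0.41 to 0.18 at FR8 (-1.57 to 1.02) and from -0.09 to 0.52 at FR20 (-0.95 to 1.64). The Baseline interval is the narrowest, and it does not hold a 2-fold difference in any of the 5 genes. At Baseline 4 of 11688 genes passed, which is 0.0342%, against 70 by DESeq2 and 38 by the likelihood ratio test, and 0, 0 and 0 genes passed at FR2, FR8 and FR20 (0% each), where 664, 618 and 400 had an unadjusted p below 0.05 and DESeq2 passed 0, 9 and 2 genes and the likelihood ratio test 2, 0 and 4.

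The labels mark 5 of the 23 animals as died (FS animals 2, 12 and 15, CPF animals 2 and 3). ALB at Baseline had a median of 124582 CPM in the 3 FS animals that died and 118892 CPM in the 12 that lived, and at FR20 it had medians of 41697 and 31898 CPM. In CPF animals the 2 that died had the lower medians, 108347 against 117680 CPM at Baseline and 27410 against 32437 CPM at FR20. The ranges overlapped, with the lowest FR20 value of all, 13202 CPM, in an animal that died. Over the 5 genes the log2 differences between animals that died and lived, with feeding group in the model, ranged from -0.20 to 0.13 at Baseline (intervals from -0.82 to 0.66) and from -0.71 to -0.09 at FR20 (-1.91 to 0.88). None of the 5 passed, nor did any other gene (0% of 11688 and of 12307 genes), where 998 and 642 genes had an unadjusted p below 0.05 and DESeq2 passed 17 and 0 and the likelihood ratio test 23 and 1.

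RBP4 and TTR circulate as a complex, and their mRNAs are set side by side here within each library. The pair was chosen after its values had been seen, so no test is given. The log2 ratio of RBP4 to TTR counts also depends on the lengths of both mRNAs, so only its changes are read. In FS animals it was higher than at Baseline in 14 of 15 animals at FR2 (mean 0.53 ± 0.40, SD), 14 of 15 at FR8 (1.49 ± 0.77) and 14 of 15 at FR20 (1.29 ± 0.85). In CPF animals it was higher in 5 of 5 (0.30 ± 0.17), 4 of 4 (1.15 ± 0.24) and 5 of 5 (1.46 ± 0.92). The median fold in FS animals was 1.40, 2.87 and 2.51, so RBP4 mRNA kept its level better than TTR mRNA did. No scaling between libraries enters this ratio. Without the 4 FS animals it was higher in 14 of 14, 14 of 14 and 13 of 14 animals.

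**Figure D4:**
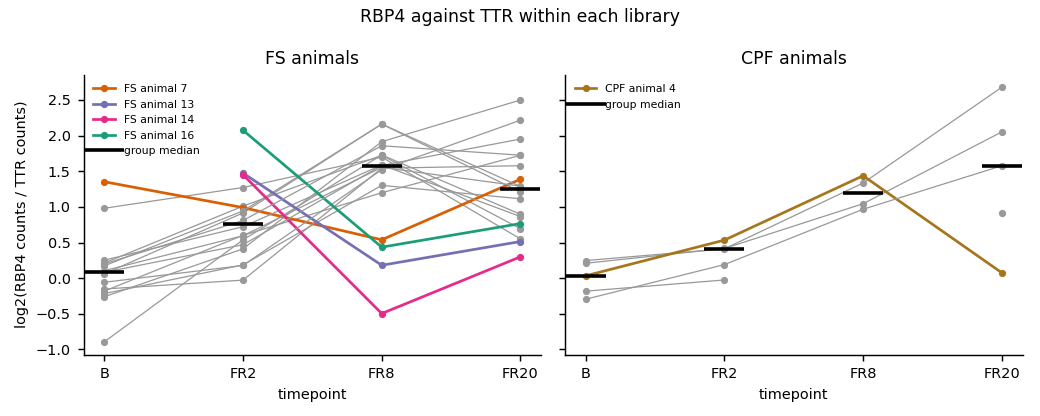
Log2 ratio of RBP4 to TTR counts within each library (vertical axis) by labelled timepoint, 1 line per animal and bars at group medians. The FS median was 0.08 at Baseline and 1.57 at FR8, and the libraries of FS animals 7, 13, 14 and 16 ran the other way between FR2 and FR8.

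The 5 genes did not vary alike across the 88 libraries. The Spearman correlation was 0.875 between ALB and TF, 0.856 between AHSG and TTR and 0.854 between TF and AHSG. Pairs with RBP4 were lower, from 0.440 with AHSG to 0.600 with TTR. These libraries share animals and timepoints, so the values are a description of 88 libraries. Among 5041 genes with a symbol and a mean of at least 10 CPM, those most like ALB were APOF (0.92), which regulates lipid transfer between lipoproteins, TF (0.875) and ADHFE1 (0.87). Most like TF were ALB (0.875), APOF (0.87) and HRG (0.86), a histidine-rich plasma protein. Most like AHSG were AMBP (0.90), the precursor of alpha-1-microglobulin, TM7SF2 (0.87) and PROC (0.86), which encodes protein C. Most like TTR were AMBP (0.92), PROC (0.92) and GSTZ1 (0.91). RBP4 had no gene as close, with LAPTM4B (0.67), DNASE1L2 (0.67) and APOF (0.66) at the top.

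Other plasma proteins that are listed as negative acute phase proteins, or belong to the albumin family, were counted beside the 5 genes in FS animals. Of 11 tested, 8 fell and 0 rose at FR2, 9 fell and 0 rose at FR8, and 8 fell and 0 rose at FR20. Of all genes 21.1%, 19.5% and 16.4% passed as lower at these timepoints. The lowest at FR20 were SERPINA6, the cortisol carrier of plasma (-2.71, SE 0.43, adjusted p = 1.56e-06), and IGFALS, which holds insulin-like growth factors in the circulation (-2.69, SE 0.35, adjusted p = 2.22e-08). The highest were AFP, the fetal albumin (0.77, adjusted p = 0.0953), and SERPINA7, a second thyroxine carrier (-0.20, adjusted p = 0.628), and neither passed. AFP did pass as higher on library totals (1.19, adjusted p = 0.00730) and without FS animals 7, 13, 14 and 16 (0.87, adjusted p = 0.0431). The list's median change was -1.03 at FR20, against 0.04 over all genes. On library totals 5 fell at FR20 and 1 (AFP) rose, where 53.8% of all genes passed in either direction. F12 was not analysed here.

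Positive acute phase proteins went mainly the other way. Of 9 tested, 4 rose and 1 fell at FR2, 6 rose and 1 fell at FR8, and 4 rose and 1 fell at FR20, where 20.3%, 19.9% and 17.4% of all genes passed as higher. The highest at FR20 were ITIH4, the pig's major acute phase protein (2.60, SE 0.39, adjusted p = 4.85e-07), and CRP, C-reactive protein (1.17, SE 0.24, adjusted p = 9.36e-05). The lowest were HPX, which binds heme (-0.82, adjusted p = 0.110), and CD14, a receptor for bacterial lipopolysaccharide, which fell (-0.66, SE 0.15, adjusted p = 0.000267). The median of the list was 0.48 at FR20. On library totals 7 rose and 1 fell at FR20, where 53.8% of all genes passed in either direction, and CD14 had -0.24 (adjusted p = 0.0491). HP, SAA3, SAA4, FGA, ORM1, SERPINA3 and HAMP were not analysed here.

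Receptors and handling proteins for the cargo of these carriers passed about as often as all genes did. Of 9 tested, 4 fell and 0 rose at FR2, 3 fell and 1 rose at FR8, and 3 fell and 1 rose at FR20, so 4 of 9 passed each time, where 41.4%, 39.3% and 33.8% of all genes passed. LRAT, which esterifies retinol for storage, rose at FR20 (0.84, SE 0.25, adjusted p = 0.00584). Among those that fell were TFR2, a transferrin receptor of hepatocytes that senses iron (-0.58, SE 0.17, adjusted p = 0.00465), and ASGR2, a subunit of the asialoglycoprotein receptor (-0.42, SE 0.12, adjusted p = 0.00338). TFRC, the transferrin receptor of most cells, had 0.49 (adjusted p = 0.184), but on library totals it passed as higher (0.93, adjusted p = 0.00666). The 3 falls depended on the scaling: on library totals none of them passed, and TFR2 had -0.16 and ASGR2 0.00. With that scaling 4 genes of the list rose, where 53.8% of all genes passed in either direction. FTL and STRA6 had too few counts to be tested and FTH1 was not analysed here.

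Transcription factors that drive liver-specific promoters moved in both directions. Of 11 tested, 6 rose and 3 fell at FR2, 5 rose and 3 fell at FR8, and 3 rose and 2 fell at FR20, where 41.4%, 39.3% and 33.8% of all genes passed in either direction, so the count at FR20 was near that of all genes. At FR20 CEBPA, which activates the albumin promoter (1.04, SE 0.25, adjusted p = 0.000832), ONECUT1 (0.85, SE 0.22, adjusted p = 0.00235) and STAT3, the effector of interleukin-6 signalling (0.73, SE 0.22, adjusted p = 0.00881), rose. FOXA2 was among those that fell (-1.12, SE 0.22, adjusted p = 5.94e-05). HNF4A had -0.37 (adjusted p = 0.151) and on library totals 0.04 (adjusted p = 0.845). Without FS animals 7, 13, 14 and 16 HNF4A passed as lower (-0.62, adjusted p = 3.42e-06), where 44.1% of all genes passed in either direction. On library totals 5 rose and 1 fell at FR20, where 53.8% of all genes passed in either direction. CEBPB, CEBPD and FOXA1 were not analysed here.

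**Figure D5:**
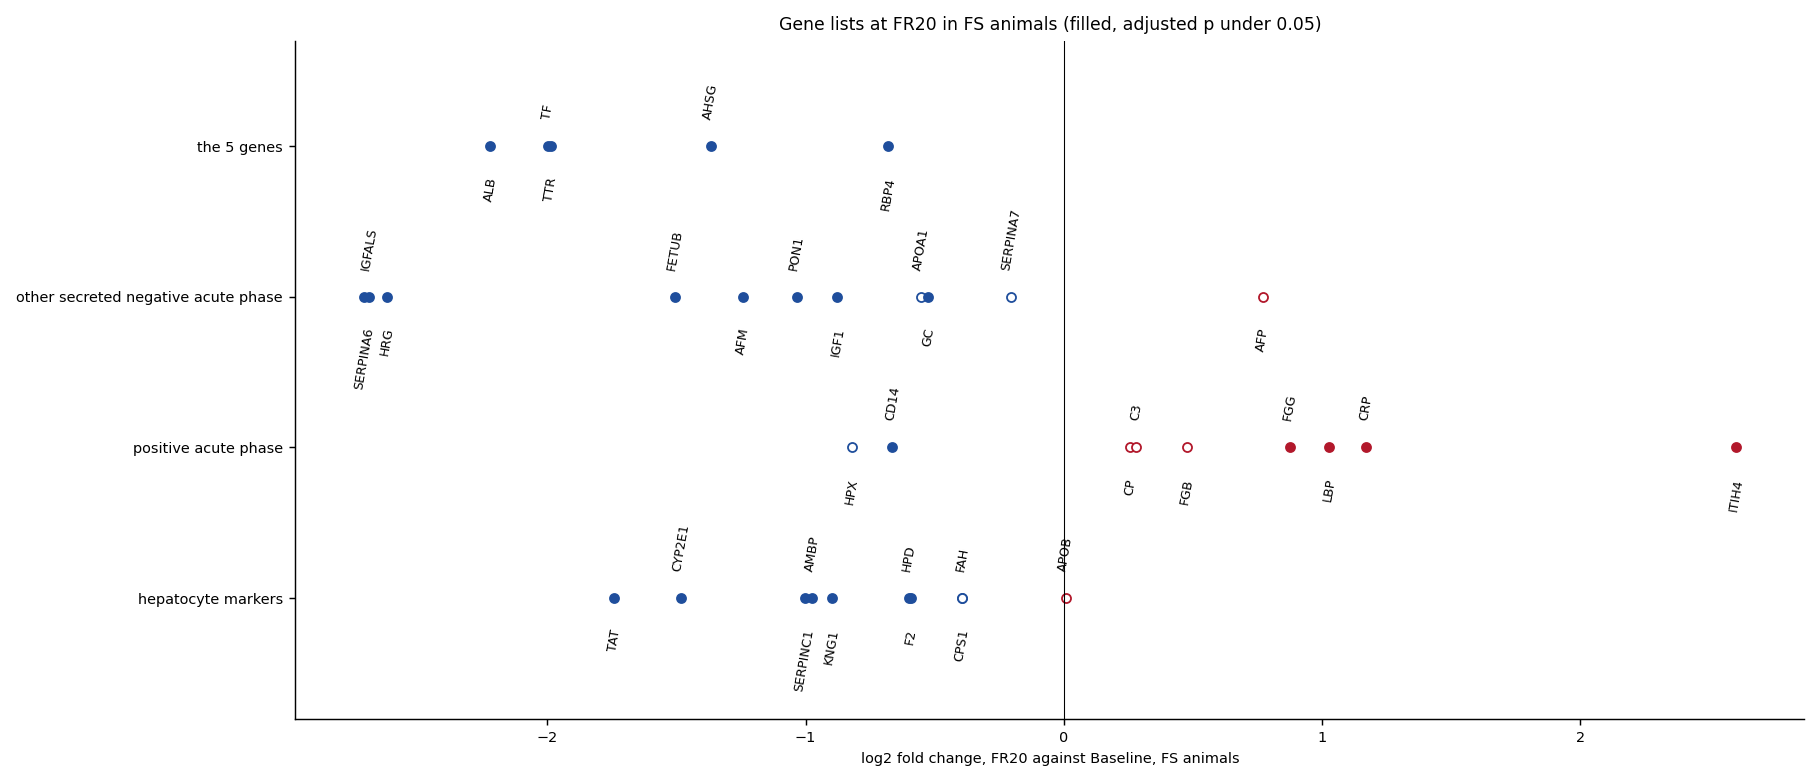
Fitted log2 fold change at FR20 against Baseline in FS animals (horizontal axis) for each tested gene of 4 lists (rows), with filled points for an adjusted p below 0.05; FAH (filled) lies under CPS1. The 5 genes and 8 of 11 other negative acute phase proteins are filled on the left, and 4 of 9 positive acute phase proteins are filled on the right.

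Markers of hepatocytes and of other cells were read beside these results. Of 10 hepatocyte markers that are in no other list, 6, 7 and 8 fell and 0, 0 and 0 rose at FR2, FR8 and FR20 in FS animals, where 21.1%, 19.5% and 16.4% of all genes passed as lower. The lowest at FR20 were TAT, a tyrosine-degrading enzyme (-1.74, SE 0.44, adjusted p = 0.00157), and CYP2E1, an ethanol-oxidizing cytochrome (-1.48, SE 0.22, adjusted p = 4.38e-07). The highest were APOB (0.01, adjusted p = 0.985) and CPS1, the entry enzyme of the urea cycle (-0.39, adjusted p = 0.162). The summed level of the 10 ranged from 18500 to 30720 CPM at Baseline (median 25840), 11600 to 24820 CPM at FR2 (20940), 13840 to 27560 CPM at FR8 (16570) and 13150 to 20370 CPM at FR20 (17900), and all 10 were detected in each FS group. On library totals 5 of the 10 fell at FR20, where 53.8% of all genes passed in either direction. So hepatocyte genes outside the acute phase lists moved with the 5 genes, with a median of -0.75 against -1.99, and their part in the result was not tested.

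Among other cell types at FR20 in FS animals, 1 of 7 striated muscle genes fell and 0 rose, 4 of 7 T and NK cell rows fell and 0 rose, and 2 of 3 erythroid genes fell and 0 rose, where 16.4% of all genes passed as lower and 17.4% as higher. Of 5 neutrophil and monocyte genes 2 rose and 2 fell, of 4 endothelial genes 1 rose, of 3 cholangiocyte genes 1 fell, and of 5 stellate cell and fibroblast genes 0 passed. Both adipocyte genes tested, PLIN1 (1.71) and CIDEC (1.27), which coat lipid droplets, rose. These lists are short, and counts of 1 are near the shares of all genes. At the earlier timepoints some moved with the 5 genes. Of the stellate cell and fibroblast genes 3 fell and 1 rose at FR2 (median -0.68) and 3 fell at FR8 (median -0.76). At FR2 2 of the endothelial genes fell, and at FR8 1 did. At FR8 3 of the T and NK cell rows and 2 of the erythroid genes fell. Of the cholangiocyte genes 1 rose at FR2 and 2 fell at FR8 (median -0.62). Of the neutrophil and monocyte genes 1 rose and 1 fell at FR2, and 1 rose and 2 fell at FR8. Of all genes 21.1% passed as lower and 20.3% as higher at FR2, and 19.5% and 19.9% at FR8. The part of these cell types in the results was not tested. The striated muscle genes summed to between 10.49 and 100.9 CPM at FR20, far from the 50780 CPM or more of the 3 libraries that were left out.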

How the data were processed

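Liver RNA of 23 pigs was sequenced as polyA libraries on an Illumina HiSeq 2000 with single reads. The authors deposited raw counts per Ensembl gene, made with CASAVA 1.8.2, TopHat 1.5.0 on Sscrofa10.2, SAMtools and HTSeq-count, and tested them with edgeR 3.2.4. The counting mode and strand setting are not given in the sources used here. The deposited table of 25322 genes and 92 libraries was used, with 0 per-sample columns left unmapped, and no fold change of the study was used.

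Counts were fitted with edgeR 4.0.16 (limma 3.58.1, R 4.3.3) by quasi-likelihood, TMM scaling, an animal term and separate timepoint terms per feeding group, over genes whose CPM summed to at least 10 across 88 libraries. The animals are the replicates. Each animal gave all its timepoints by the sample titles, so the animal was kept as a block: residuals of libraries of the same animal correlated with a median of 0.21 over genes (94 of 126 pairs over 0.1), against -0.02 (543 of 2391 pairs) between animals of a feeding group. CPF against FS levels were fitted within each timepoint (11688, 11892, 11951 and 12307 genes), and died against lived with a feeding term. P-values were adjusted by Benjamini-Hochberg over all genes tested, passed means an adjusted p under 0.05, and intervals cover 95%. SE is the log2 change divided by the square root of its F. The code of the fit was run on simulated counts with the same spread for all genes and correct timepoint labels. That run does not cover libraries that are unlike their label. Alternatives were DESeq2 1.42.0, a likelihood ratio test, other scaling and filters, and leaving out each animal.

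The 5 genes and all lists were chosen with earlier results of these data known. Named by rule were the 5 genes everywhere, the 2 highest and 2 lowest of each list at FR20 in FS animals, every transcription factor and cargo partner that passed there, and the 3 genes most like each of the 5. Other genes named (TFRC, HNF4A, PLIN1, CIDEC) were chosen after their values were seen. A few genes counted in the lists are not reported here by name. Tables were handled with Python 3.11.15, pandas 2.3.3, numpy 2.4.6 and scipy 1.17.1, and figures with matplotlib 3.10.9.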

Additional observations from a re-analysis of the deposited data

Results flagged for a closer look

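In 3 groups of CPF animals, 1 library stood apart from the others by Dixon's 95% limit, and chance marks about 1 in 20 groups. The check was made for each of the 5 genes at each timepoint. These groups share libraries and animals, so they are not independent. ALB in CPF animals at FR20 was 168246 CPM in animal 4, where the next highest library held 35666 CPM and the lowest 19154 CPM. TF in CPF animals at FR2 was 29382 CPM in the same animal, where the next held 20197 CPM and the lowest 17035 CPM. RBP4 in CPF animals at Baseline was 5988 CPM in animal 2, where the next held 4991 CPM and the lowest 4619 CPM. Groups of FS animals hold more than 10 libraries and were not tested in this way.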

How the results depend on the processing

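With the 3 Baseline libraries without hepatocyte RNA kept, 0 of the 5 genes passed at FR2 and FR8 and 3 at FR20 in FS animals. In that fit 0 passed in CPF animals at FR8 and FR20 and between consecutive timepoints in FS animals. These counts of the 5 were equal with all 92 libraries. With the 3 kept, 4366, 4155 and 3160 of 13923 genes passed at FS FR2, FR8 and FR20. At CPF FR8 and FR20 540 and 0 passed, and between consecutive FS timepoints 2958 and 396. With an absolute log2 change of at least 1 required as well, 0 passed at FR2 in FS animals and 0 between FR2 and FR8 and between FR8 and FR20. By that rule 1505, 814 and 200 of 13667 genes passed in these comparisons. DESeq2 passed 5 at both CPF FR8 and CPF FR20, where it passed 2422 and 410 of 13667 genes. The fits without FS animals 7, 13, 14 and 16 and without the 18 libraries closest to another timepoint passed 5 at both as well. Of all genes the first of these 2 fits passed 3100 and 1017 of 13445 there, and the second 2889 and 2043 of 13376. These 2 fits also passed 5 between FR2 and FR8 in FS animals, where 6483 and 6579 genes passed. With no filter on low counts 1 of the 5 genes passed at CPF FR20, where 82 of 18179 genes did.

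Without the replicate block, which is the pairing by animal, 1 gene passed at CPF FR8, 0 at CPF FR20, 0 between FR2 and FR8 and 0 between FR8 and FR20. In these comparisons, in that order, 1368, 0, 3233 and 638 of 13667 genes passed. The other counts of the 5 stayed within 1.5 times. Leaving out 1 animal at a time gave 4 to 5 passed genes at FS FR2, 5 to 5 at FS FR8 and FS FR20, 0 to 4 at CPF FR8, 0 to 5 at CPF FR20, 2 to 5 between FR2 and FR8, 1 to 2 between FR8 and FR20, and 0 to 0 in the other comparisons. The mean log2 RBP4 to TTR change stayed at 0.47 to 0.59, 1.41 to 1.66 and 1.18 to 1.41 in FS animals and at 0.25 to 0.34, 1.06 to 1.25 and 1.21 to 1.81 in CPF animals.

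Signs changed only for values that had not passed, among those named. RBP4 at FS FR2 was 0.063 with the 3 Baseline libraries kept and 0.070 with all 92. The CPF minus FS difference of ALB at FR8 was -0.39 and -0.59 in these fits and -0.16 without the block, and it ranged from -0.12 to 0.20 over the fits without 1 animal. At FR20 these ranged from -0.21 (without CPF animal 4) to 0.78. TTR between FR8 and FR20 in FS animals was 0.010 on library totals, 0.19 without the 4 FS animals and 0.30 without the 18 libraries. Of 1398 other values of the comparisons between feeding groups and of animals that died, 119 changed sign and 0 passed.

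Over all genes, 4617 passed at FS FR20 against 7348 on library totals, and 122 at CPF FR20 against a range from 0 without the block to 2043 without the 18 libraries. The cause of these differences was not tested.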

Other observations

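ALB and AHSG each lie in a row of related genes, and their neighbours were compared in FS animals. In the gene table of a later pig assembly, AFP follows ALB and AFM follows AFP, all of the albumin family, while FETUB, HRG and KNG1, all of the cystatin family, follow AHSG. AFM, the carrier of vitamin E, fell with ALB, with a log2 change of -0.59, -1.05 and -1.24 at FR2, FR8 and FR20 (edgeR quasi-likelihood test, adjusted p = 0.00521, 8.04e-06 and 3.11e-07). AFP, between them, stayed low, with medians of 0.651 CPM at Baseline and 1.44 CPM at FR20, and its change did not pass at any timepoint (0.77 at FR20, adjusted p = 0.0953), though at FR20 it passed as higher on library totals (1.19, adjusted p = 0.00730) and without FS animals 7, 13, 14 and 16 (0.87, adjusted p = 0.0431). FETUB changed by -0.77, -1.03 and -1.51, HRG by -0.82, -1.70 and -2.62 and KNG1, the precursor of bradykinin, by -0.66, -1.19 and -0.90, and all passed at all 3 timepoints. So 4 of 4 genes of the AHSG row and 2 of 3 of the ALB row fell at FR20, where 16.4% of all genes passed as lower. These counts include AHSG and ALB themselves, whose falls are given above. The neighbours were already counted in the lists above, so the counts add no separate evidence. These genes were picked by position after the results were known, and reads shared between family members could be counted to either gene.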
